A study of Macaca radiata with 6 samples.

Results

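Cells of a tissue are held to each other by tight junctions, adherens junctions and gap junctions. Claudins, occludin and the junctional adhesion molecules form the strands of tight junctions, which the zonula occludens proteins tie to actin. Cadherins bind the same cadherin on the next cell, and connexins form the channels through which small molecules pass between cells. The corpus luteum, the ovarian gland that makes progesterone after ovulation, is densely vascular, and its endothelial and steroidogenic cells both carry such junctions. The genes described here were the claudins (CLDN), the classical and related cadherins (CDH), the connexins (GJA to GJD), the zonula occludens genes (TJP) and the junctional adhesion genes, chosen by their symbols in the array annotation. In all, 54 genes with 83 probe sets met the rule, out of 14133 genes and 24969 probe sets with a single symbol.

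The tissue was corpus luteum of female bonnet monkeys (Macaca radiata), taken on day 10 of the luteal phase. The 3 PGF2alpha arrays came from monkeys given 3 intramuscular injections of prostaglandin F2-alpha, which induces regression of the gland, at 59 µg/kg body weight, and the 3 vehicle arrays from monkeys given phosphate-buffered saline. The gland was collected 24 h after administration in both groups. Total RNA was the extracted molecule and biotin the label, and the animals' ages and genotypes are not given in the sources used here. The labels state 3 animals per group without tying arrays to animals, so the p-values speak only of the spread among these arrays, which may be technical. Replicate numbers are those of the labels, 1 to 3 for PGF2alpha and 4 to 6 for vehicle.

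Values are Microarray Suite 5.0 (MAS5) signals per probe set, read on a chip designed for rhesus macaque. Array medians lay between 115 and 134, and the arrays correlated with each other at 0.94 to 0.96 over all probe sets. STAR, which feeds cholesterol to steroid synthesis in luteal cells, read 33800, 36500 and 50300 on the PGF2alpha arrays, against 58800, 71900 and 59400 on the vehicle arrays, so the tissue carried its defining transcript in both groups. The scanner files give hybridisation times but name no runs, and the times were split here into 2 runs at a chosen time gap. Run 2 held PGF2alpha replicate 2 and vehicle replicate 4, and run 1 the other arrays. Differences within run 2 therefore compare a single array of each group. Ratios of 3-prime to 5-prime control probe sets did not separate the groups for beta-actin (exact permutation p = 1) or GAPDH (exact permutation p = 0.7), where 0.1 is the smallest p that 3 against 3 arrays allow.

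Most tested junction genes did not pass the test between the groups, and 2 claudins changed in opposite directions. CLDN3, a claudin that seals epithelial tight junctions, fell after PGF2alpha, and CLDN5, the claudin that seals endothelial junctions, rose. Of the 83 probe sets, 30 were bright enough to be tested (at or above the median of the array on at least 3 of the 6 arrays), which covered 18 of the 54 genes, and 25 of these 30 passed on all 6 arrays. The limma test called 2 of the 30 (6.67%) at an adjusted p under 0.05, 1 higher and 1 lower, against 5.02% of all 26942 tested probe sets (3.03% higher and 1.99% lower), so the share called was near that of the whole array. Counted by gene, 2 of the 18 were called, against 6.08% of all tested genes (3.76% higher and 2.32% lower). The groups did not overlap for 8 of the 30 (26.7%), 3 of them higher and 5 lower after PGF2alpha, against 26.8% of all tested probe sets. An unadjusted p under 0.05 was reached by 5 of the 30 (16.7%), against 21% of all tested probe sets. Over the 18 tested genes the median log2 fold change was -0.01, with 9 positive values, and over all 9980 tested genes it was -0.02.

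**Figure D1:**
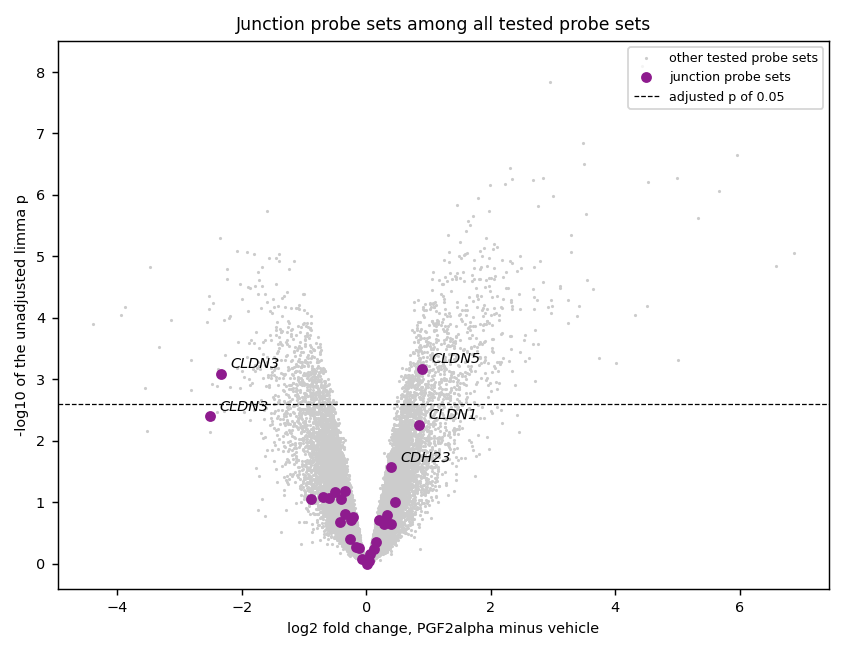
Unadjusted limma p on a -log10 axis against the log2 fold change, PGF2alpha minus vehicle, for the 30 tested junction probe sets (purple) and all other tested probe sets (grey), with the level that matches an adjusted p of 0.05 dashed. CLDN5 and 1 of the 2 CLDN3 probe sets lie above the dashed line, and the other CLDN3 probe set and CLDN1 lie just under it.

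The 2 calls depended on single arrays. Without PGF2alpha replicate 3 the test called 3 of the 30 probe sets, both of CLDN3 and that of CLDN5, and 1903 of all probe sets in place of 1353. It called CLDN5 alone without vehicle replicate 5 (633 in all). None of the 30 was called by limma without PGF2alpha replicate 1 (364 in all), PGF2alpha replicate 2 (223), vehicle replicate 4 (619) or vehicle replicate 6 (435). In these 4 fits 6 or 7 of the 30 had an unadjusted p under 0.05, and CLDN3 stayed negative and CLDN5 positive in each.

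Among the tested claudins, CLDN3 showed the widest difference. Its brighter probe set read 199, 200 and 885 on PGF2alpha replicates 1, 2 and 3, against 2580, 1550 and 1580 on vehicle replicates 4, 5 and 6. The groups did not overlap, and PGF2alpha replicate 3 stood between the other two PGF2alpha arrays and the vehicle arrays. CLDN3 averaged 428 ± 396 after PGF2alpha and 1905 ± 587 after vehicle (SD, n = 3 each), and it fell by 2.33 on the log2 scale (SE 0.48, 95% interval -3.41 to -1.26, limma adjusted p = 0.0284). Values are on the log2(signal + 40) scale, which understates changes of low signals.

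The second CLDN3 probe set gave the same picture with wider error. It read 15.6, 38.8 and 422 on PGF2alpha replicates 1, 2 and 3, against 862, 552 and 655 on the vehicle arrays. Again the groups did not overlap, and the first 2 PGF2alpha arrays lay below the median of every array. Its log2 fold change was -2.51 (SE 0.66, 95% interval -3.99 to -1.02, limma adjusted p = 0.0622). Without PGF2alpha replicate 3 both CLDN3 probe sets passed, at -2.98 and -3.44 (limma adjusted p = 0.000682 for each). Within run 1 the 2 probe sets differed by -1.77 and -2.0, and within run 2 by -3.45 and -3.52.

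The summed signal of the luteal steroidogenic markers was lower on every PGF2alpha array, although most of these markers did not pass the test. Of 14 such markers, 9 were named on the array and tested. Their summed signal ranged from 83137 to 149189 on the PGF2alpha arrays and from 166135 to 198611 on the vehicle arrays. The test called 2 of 9 lower (STAR and the androgen-forming enzyme CYP17A1) and 0 higher, beside 2.32% of all tested genes called lower and 3.76% higher. STAR passed at a limma adjusted p of 0.0497 and kept its call in 6 of 17 alternative fits. Much of the sum was STAR. The median log2 fold change of the 9 was -0.77, with 1 positive value. NR5A1 and NR5A2 had -0.16 and 0.01 (limma adjusted p = 0.726 and 0.972). NR5A1 was dim, with means of 237 after PGF2alpha and 270 after vehicle, while NR5A2 averaged 3404 and 3349. The PGF2alpha array nearest to the vehicle arrays for STAR was replicate 3, as for CLDN3. Epithelial markers had 12 of 19 genes named and 7 tested, with summed signals of 6860 to 8223 after PGF2alpha and 7969 to 8846 after vehicle. Limma called 0 of the 7, while 4 had an unadjusted p under 0.05, against 21% of all tested probe sets. Among the tested epithelial markers, KRT18 (log2 fold change -0.44) and UPK3B (-1.09) had lower signals after PGF2alpha with no overlap between the groups, and CD24 (1.82) and KRT19 (0.51) had higher ones. EPCAM, a defining epithelial adhesion molecule, was below the brightness filter at 4.28, 3.45 and 3.64 on the PGF2alpha arrays, against 3.77, 29.9 and 4.92 on the vehicle arrays. The part of these cells in the CLDN3 result was not tested. In whole tissue, fewer cells of a type and less RNA per cell cannot be told apart.

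**Figure D2:**
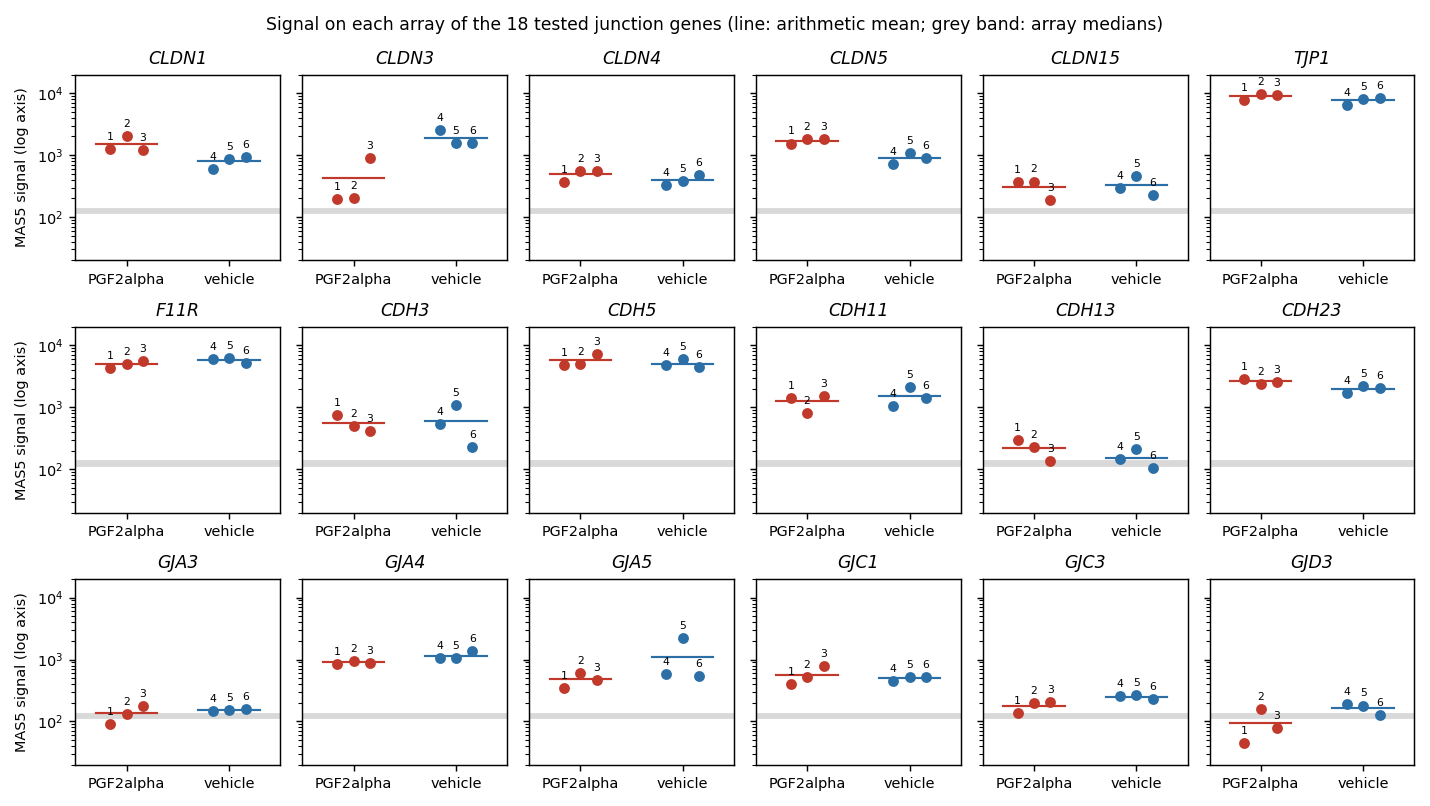
MAS5 signal on a log axis for the 18 tested junction genes (the brightest tested probe set of each), with each array as a numbered point, PGF2alpha left and vehicle right. Lines are arithmetic group means and the grey band spans the array medians, 115 to 134. CLDN3 and CLDN5 separate the groups in opposite directions, and vehicle array 5 stands high for GJA5 and CDH3.

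CLDN5 rose in every PGF2alpha array relative to every vehicle array. Its single probe set read 1540, 1830 and 1790 on the PGF2alpha arrays, against 728, 1100 and 911 on the vehicle arrays. The PGF2alpha arrays lay close together, with a mean of 1721 ± 156, against 914 ± 187 for vehicle (SD, n = 3 each). CLDN5 rose by 0.90 on the log2 scale (SE 0.18, 95% interval 0.50 to 1.30, limma adjusted p = 0.0266), with 0.71 within run 1 and 1.28 within run 2.

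Neither CDH5 nor the fixed endothelial markers passed the test. VE-cadherin, encoded by CDH5, holds endothelial cells to each other at adherens junctions. Its brighter probe set read 4800, 5070 and 7310 on the PGF2alpha arrays, against 4850, 5940 and 4490 on the vehicle arrays, and the groups overlapped. The log2 fold change was 0.15 (95% interval -0.27 to 0.58, limma adjusted p = 0.704), and that of the second CDH5 probe set was 0.07 (95% interval -0.31 to 0.44, limma adjusted p = 0.866), so a change of 1 log2 unit in either direction lay outside both intervals. Of 21 endothelial markers fixed as a list, 17 were named and all 17 were tested, with a median log2 fold change of -0.02. Limma called 0 of them, beside 3.76% of all tested genes called higher and 2.32% lower. An unadjusted p under 0.05 was reached by 5 of the 17, against 21% of all tested probe sets. These 5 split in direction, each with no overlap between the groups. TEK (log2 fold change 0.62), ENG (0.58, limma adjusted p = 0.0548) and CLEC14A (0.56) were higher after PGF2alpha, and FLT1 (-0.78) and NOS3 (-0.51) lower. Without PGF2alpha replicate 3, 2 of the 17 were called higher and 2 lower. The summed signal of the 17 was 28423 to 38214 after PGF2alpha and 30618 to 38702 after vehicle, and these ranges overlapped. Whether CLDN5 differed from CDH5 in its response was not tested.

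CLDN1, a barrier claudin of epithelia, was the next claudin by size. Its brighter probe set read 1270, 2000 and 1190 on the PGF2alpha arrays, against 596, 874 and 921 on the vehicle arrays. The groups did not overlap, and the highest array was PGF2alpha replicate 2 and the lowest vehicle replicate 4, which shared run 2. CLDN1 averaged 1487 ± 443 after PGF2alpha and 797 ± 175 after vehicle (SD, n = 3 each), a log2 fold change of 0.85 (95% interval 0.32 to 1.39, limma adjusted p = 0.0745) that missed the threshold in all 17 alternative fits too. The difference was 0.44 within run 1 and 1.68 within run 2. The second CLDN1 probe set read 412, 720 and 480 on the PGF2alpha arrays, against 269, 451 and 416 on the vehicle arrays. These overlapped, with a log2 fold change of 0.46 (limma adjusted p = 0.34), of 0.04 within run 1 and 1.30 within run 2.

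The remaining tested claudins differed less. CLDN4, another sealing claudin of epithelia, read 363, 564 and 550 on the PGF2alpha arrays, against 334, 378 and 475 on the vehicle arrays, and the groups overlapped (log2 fold change 0.28, 95% interval -0.20 to 0.76, limma adjusted p = 0.51). CLDN15, which forms cation pores in intestine, read 366, 375 and 188 on the PGF2alpha arrays, against 292, 458 and 226 on the vehicle arrays. Its groups overlapped as well (log2 fold change -0.06, 95% interval -0.75 to 0.62, limma adjusted p = 0.933).

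The scaffold and the junctional adhesion gene were bright, and neither passed the test. TJP1, the zonula occludens scaffold under tight and gap junctions, read 7700, 9750 and 9180 on the PGF2alpha arrays, against 6520, 8170 and 8340 on the vehicle arrays. The groups overlapped, with a log2 fold change of 0.21 (95% interval -0.13 to 0.55, limma adjusted p = 0.475), and the second TJP1 probe set gave 0.28 (95% interval -0.18 to 0.74, limma adjusted p = 0.486). As with CLDN1, the TJP1 difference was larger in run 2, at 0.58 and 0.92 for the 2 probe sets, than in run 1, at 0.03 and -0.04. F11R, the junctional adhesion molecule of endothelium, epithelium and platelets, read 4300, 5010 and 5650 on the PGF2alpha arrays, against 5960, 6300 and 5130 on the vehicle arrays. Its 3 tested probe sets had log2 fold changes of -0.22, -0.12 and -0.25 (limma adjusted p from 0.451 to 0.784), all with overlapping groups, and the sign of the one at -0.12 changed in some alternative fits, which spanned -0.31 to 0.05.

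**Figure D3:**
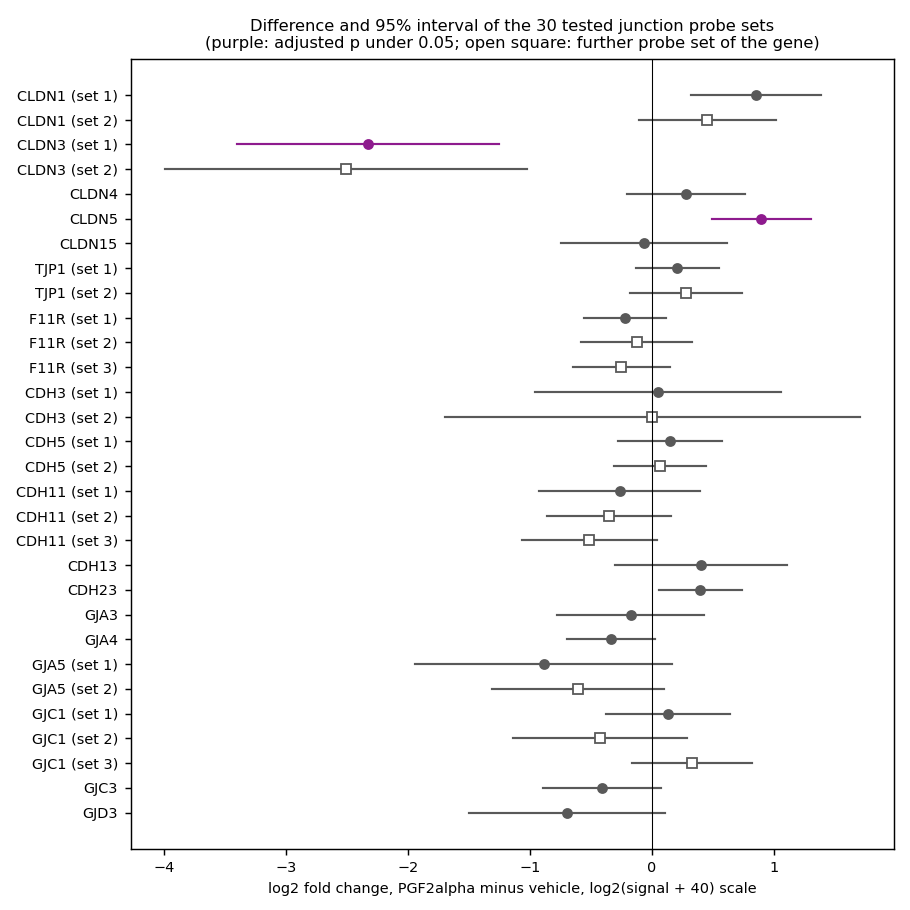
Log2 fold change, PGF2alpha minus vehicle, with its 95% interval for the 30 tested junction probe sets. Filled circles are the brightest tested probe set of a gene, open squares further probe sets, and purple marks an adjusted p under 0.05. Both CLDN3 sets lie left of the others at -2.33 and -2.51, while most intervals span 0.

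Of the 20 cadherin genes, 5 had a tested probe set and 0 were called by limma (1 probe set had an unadjusted p under 0.05). Besides CDH5 these were CDH11, CDH13, CDH3 and CDH23. CDH11, a cadherin of mesenchymal and stromal cells, read 1400, 812 and 1540 on the PGF2alpha arrays, against 1050, 2090 and 1410 on the vehicle arrays, with overlapping groups and a log2 fold change of -0.26 (limma adjusted p = 0.666). Its other tested probe sets gave -0.35 and -0.51 (limma adjusted p = 0.423 and 0.279). Over the alternative fits the brightest set spanned -0.49 to 0.01, so its sign was not settled.

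CDH13, a cadherin anchored by a lipid tail that binds adiponectin, read 294, 225 and 135 on the PGF2alpha arrays, against 147, 210 and 103 on the vehicle arrays. The groups overlapped close to the array medians (log2 fold change 0.40, 95% interval -0.30 to 1.11, limma adjusted p = 0.513). CDH3, or P-cadherin, was the most uneven cadherin among vehicle arrays. Its brighter probe set read 753, 497 and 408 on the PGF2alpha arrays, against 529, 1080 and 229 on the vehicle arrays, with overlapping groups. Its second probe set read 613, 258 and 368 on the PGF2alpha arrays, against 431, 1430 and 73.5 on the vehicle arrays. On both, vehicle replicate 5 was the highest of the 6 arrays and vehicle replicate 6 the lowest. The log2 fold changes of 0.05 and 0.00 (limma adjusted p = 0.965 and 0.998) came with wide 95% intervals, of -0.96 to 1.06 and -1.70 to 1.71. Without vehicle replicate 5 they were 0.56 and 0.89 (limma adjusted p = 0.43 and 0.428).

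CDH23, known as a tip-link cadherin of inner-ear hair cells, is given because its values were seen to separate the groups. Its tested probe set read 2900, 2390 and 2550 on the PGF2alpha arrays, against 1710, 2180 and 2030 on the vehicle arrays, and the groups did not overlap. The log2 fold change was 0.40 (95% interval 0.06 to 0.74, limma adjusted p = 0.172). The 3 other CDH23 probe sets did not pass the brightness filter, and all had overlapping groups. The brightest of them read 104, 128 and 66.6 on the PGF2alpha arrays, against 158, 120 and 89.7 on the vehicle arrays. Without the filter the log2 fold changes of the 3 were -0.22, 0.55 and -0.31, so they disagreed in sign.

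Of 13 connexin genes, 6 had a tested probe set and 0 were called by limma, with no probe set at an unadjusted p under 0.05. The 2 tested connexins of arterial endothelium had lower mean signals after PGF2alpha without passing. GJA4, which also couples oocyte and granulosa cells, read 851, 957 and 894 on the PGF2alpha arrays, against 1050, 1050 and 1360 on the vehicle arrays. The groups did not overlap, with a log2 fold change of -0.33 (95% interval -0.70 to 0.03, limma adjusted p = 0.271).

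GJA5, a connexin of arteries and of the atrial conduction system, read 351, 615 and 467 on the PGF2alpha arrays, against 593, 2220 and 535 on the vehicle arrays. Vehicle replicate 5 stood far above the other arrays, and the rest overlapped. The log2 fold change was -0.89 (95% interval -1.94 to 0.16, limma adjusted p = 0.318), and it was -0.25 without vehicle replicate 5 (limma adjusted p = 0.604). The second GJA5 probe set read 138, 124 and 138 on the PGF2alpha arrays, against 185, 389 and 150 on the vehicle arrays. It also had its highest value on vehicle replicate 5, with groups that did not overlap and a log2 fold change of -0.61 (limma adjusted p = 0.312). Without vehicle replicate 5 this became -0.26 (limma adjusted p = 0.638).

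The other tested connexins were dimmer or mixed. GJC1, a connexin of vascular smooth muscle and cardiac conduction tissue, was the 1 gene of 9 with several tested probe sets whose probe sets disagreed in sign. Its log2 fold changes were 0.13, -0.43 and 0.33 (limma adjusted p = 0.798, 0.493 and 0.431). The brightest GJC1 probe set read 406, 520 and 778 on the PGF2alpha arrays, against 457, 516 and 524 on the vehicle arrays, and its groups overlapped. GJC3, known in mice from myelinating glia, read 137, 199 and 207 on the PGF2alpha arrays, against 256, 268 and 229 on the vehicle arrays. Its groups did not overlap (log2 fold change -0.41, limma adjusted p = 0.322). GJD3 read 44.5, 160 and 79.0 on the PGF2alpha arrays, against 193, 181 and 126 on the vehicle arrays, with overlapping groups (log2 fold change -0.70, limma adjusted p = 0.306). GJA3, a connexin of the eye lens, read 92.5, 131 and 180 on the PGF2alpha arrays, against 145, 155 and 158 on the vehicle arrays (log2 fold change -0.17, limma adjusted p = 0.773). It and GJD3 lay about the array medians.

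Across the 30 tested probe sets the difference had the same sign in both runs for 25, and it was larger in size in run 2 for 18. PGF2alpha replicate 3 was the PGF2alpha array nearest to the vehicle mean for 12 of the 30 and for 5 of the 8 whose groups did not overlap. The highest array was vehicle replicate 5 for 9 of the 30, and the lowest was PGF2alpha replicate 1 for 12. In 14 of the 30 the brightest and dimmest arrays lay within 1 log2 unit of each other.

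**Figure D4:**
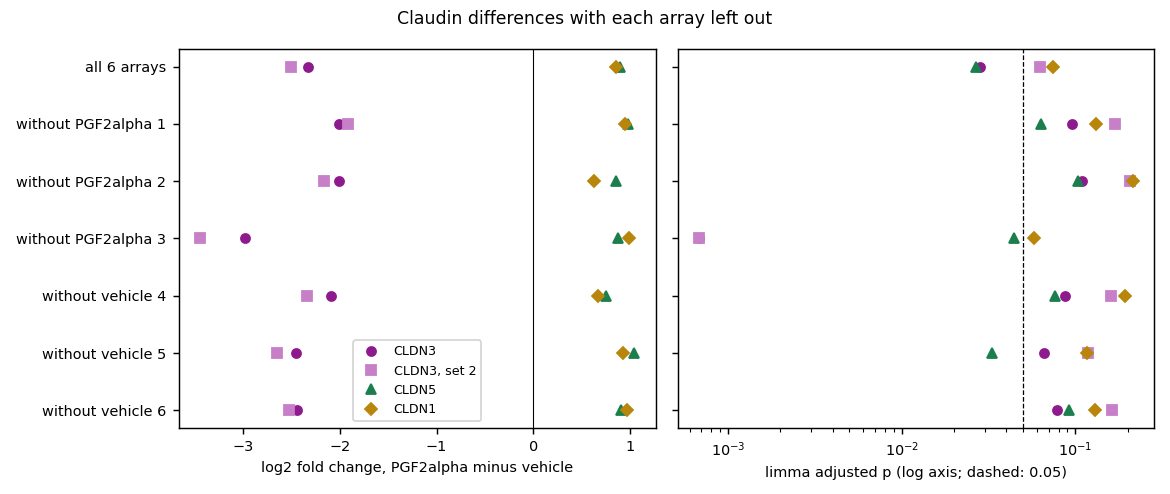
Left, log2 fold change, PGF2alpha minus vehicle, and right, limma adjusted p on a log axis with 0.05 dashed, for CLDN3 (both probe sets), CLDN5 and CLDN1 with all 6 arrays and with each array left out. The signs hold throughout, while the p of the brighter CLDN3 set passes 0.05 with all arrays and without PGF2alpha replicate 3, where the 2 CLDN3 points coincide.

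The other 53 probe sets were not tested because of low signal, and 46 of them lay below the median of the array on all 6 arrays. They included every probe set of 36 genes, whose signals, with those of dim probe sets of tested genes, ran from 2.12 to 288. Without detection calls, a low signal here shows neither absence nor presence, and a chip of another macaque species can read low where sequences differ. E-cadherin, encoded by CDH1, read 50.7, 21.7 and 4.75 on the PGF2alpha arrays, against 7.18, 27.8 and 39.9 on the vehicle arrays. Occludin, encoded by OCLN, read 19.1, 47.4 and 11.3 on the PGF2alpha arrays, against 46.1, 9.28 and 20 on the vehicle arrays. Both were low and overlapping in the 2 groups.

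The epithelial claudin CLDN7 read 26.2, 88.0 and 24.9 on the PGF2alpha arrays, against 31.8, 25 and 32.4 on the vehicle arrays. The scaffold TJP3 read 17.5, 13.4 and 20.6 on the PGF2alpha arrays, against 4.08, 13.6 and 6.22 on the vehicle arrays. The connexin GJB6 read 12.0, 7.77 and 11.5 on the PGF2alpha arrays, against 54.2, 10.3 and 7.15 on the vehicle arrays. All 3 stayed below the median of every array. Without the brightness filter 0 of the 53 were called by limma (lowest adjusted p = 0.263), 3 had an unadjusted p under 0.05, and 6 had groups that did not overlap. Of all 25765 untested probe sets, 6.83% had such a p and 11.8% had groups that did not overlap. The 3 were chosen after their values were seen. They were the cation-channel claudin CLDN2, which read 24.8, 18.6 and 33.6 on the PGF2alpha arrays, against 85.5, 115 and 42.3 on the vehicle arrays, CLDN10 with means of 17.4 after PGF2alpha and 57.3 after vehicle, and the intestinal cadherin CDH17 with means of 188 after PGF2alpha and 87.4 after vehicle. CLDN11, JAM2, JAM3, ESAM, CDH2, GJA1 and GJB2 were looked for by name and are not analysed here.

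Partner proteins of the junctions were read from fixed lists. Of 25 adherens junction and desmosome partners 16 were named and 12 tested, with a median log2 fold change of 0.12. Among these 12, 2 were called higher and 0 lower, beside 3.76% of all tested genes called higher and 2.32% lower. Both called genes belong to desmosomes, the spot junctions that anchor intermediate filaments. Desmoplakin, encoded by DSP, read 3060, 2900 and 1610 on the PGF2alpha arrays, against 432, 914 and 517 on the vehicle arrays, and rose by 1.97 on the log2 scale (SE 0.31, limma adjusted p = 0.0123). No arrays overlapped, and PGF2alpha replicate 3 was again the nearest to vehicle.

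Plakoglobin, encoded by JUP and shared by desmosomes and adherens junctions, read 1710, 1860 and 1900 on the PGF2alpha arrays, against 1240, 1140 and 1100 on the vehicle arrays. It rose by 0.64 (SE 0.14, limma adjusted p = 0.0338). The desmosomal cadherins DSG2 and DSC2 had log2 fold changes of -0.07 and -0.12 (limma adjusted p = 0.941 and 0.883). The cadherin-binding catenins CTNNA1 and CTNND1 had 0.08 and -0.24 (limma adjusted p = 0.826 and 0.419). These 4 were chosen after their values were seen.

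Of 30 tight junction scaffold and polarity genes, 22 were named and 14 tested, and 0 were called by limma (median log2 fold change 0.22, with 2 at an unadjusted p under 0.05). Of 8 gap junction partners and pannexins, 7 were named and 5 tested, with a median of 0.85. Among these 5, 2 were called higher and 0 lower, beside 3.76% of all tested genes called higher and 2.32% lower. CAV1, the caveolin of endothelial and smooth muscle membranes, read 9410, 10800 and 8970 on the PGF2alpha arrays, against 5080, 4750 and 6380 on the vehicle arrays. It rose by 0.85 (SE 0.15, limma adjusted p = 0.018), and its 2 other tested probe sets rose by 0.86 and 0.91. PANX2, a pannexin channel, read 214, 346 and 311 on the PGF2alpha arrays, against 104, 125 and 104 on the vehicle arrays, and rose by 1.11 (limma adjusted p = 0.0333). PANX2 and the uncalled pannexin PANX1 (log2 fold change 1.02, limma adjusted p = 0.122) passed the brightness filter only through the PGF2alpha arrays. A difference was thus built into their selection, and it enters the count and the median of this list.

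**Figure D5:**
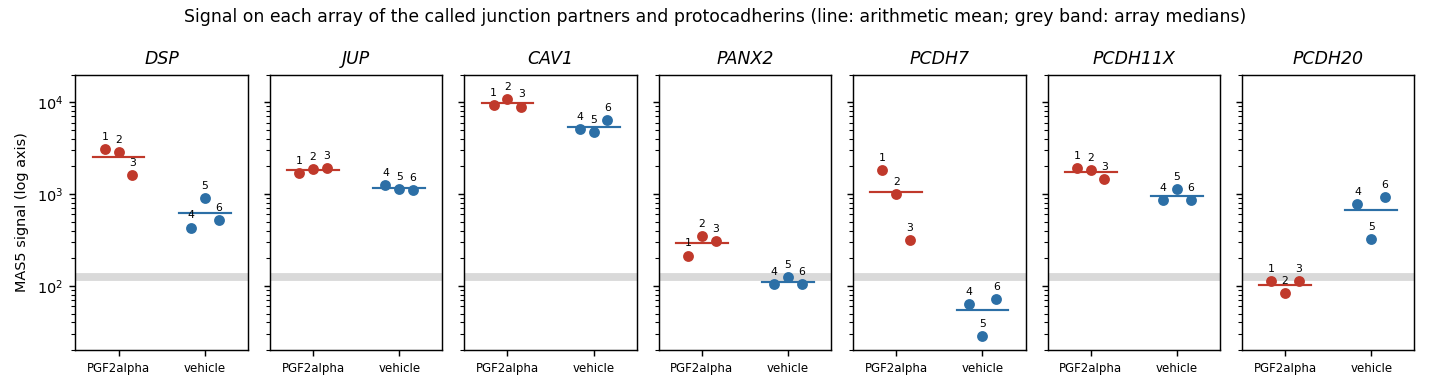
MAS5 signal on a log axis for the called junction partners and protocadherins, with each array as a numbered point, PGF2alpha left and vehicle right, lines at the arithmetic group means and a grey band over the array medians. The groups do not overlap in any of the 7 genes, and only PCDH20 is lower after PGF2alpha.

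Protocadherins and other members of the cadherin superfamily outside the CDH genes were read from a list of their own. Of 30 such genes 20 were named and 15 tested, with a median log2 fold change of 0.09. Among these 15, 2 were called higher and 1 lower, beside 3.76% of all tested genes called higher and 2.32% lower. PCDH7, a protocadherin that mediates homophilic adhesion, read 1820, 989 and 319 on the PGF2alpha arrays, against 64.2, 28.7 and 72.0 on the vehicle arrays. It rose by 3.25 (SE 0.51, limma adjusted p = 0.0123). All vehicle arrays lay below the median of every array, which leaves the size of the rise uncertain.

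PCDH20 moved the other way, with 113, 83.8 and 113 on the PGF2alpha arrays, against 775, 324 and 921 on the vehicle arrays. It fell by 2.21 on the log2 scale (SE 0.34, limma adjusted p = 0.0114). PCDH7 passed the filter only through the PGF2alpha arrays and PCDH20 only through the vehicle arrays. A difference was thus built into the selection of both, and it enters the counts and the median of this list. PCDH11X read 1910, 1820 and 1460 on the PGF2alpha arrays, against 857, 1130 and 860 on the vehicle arrays, and rose by 0.84 (limma adjusted p = 0.0293). Whether this list differs from the cadherin genes in its response was not tested.

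Regulators of epithelial and mesenchymal state, which include repressors of CDH1 and of claudins, gave 0 calls by limma among 7 tested of 13 named and 16 listed (2 with an unadjusted p under 0.05). The median log2 fold change was -0.03. Among pericyte and smooth muscle markers 0 of 8 tested were called by limma (2 with an unadjusted p under 0.05), and their summed signal was 20414 to 27246 after PGF2alpha and 25606 to 28542 after vehicle. Of the neuronal and Schwann cell markers 2 of 10 were tested, and the neuronal tubulin TUBB3 rose by 0.86 (limma adjusted p = 0.0231), while its 3 other tested probe sets did not pass.

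Of 15 tested macrophage and monocyte markers, 7 were called higher after PGF2alpha and 0 lower, beside 3.76% of all tested genes called higher, and their median log2 fold change was 0.93. By p the first 4 were the mannose receptor MRC1 at 2.95, the scavenger receptor MARCO at 2.67, the endotoxin co-receptor CD14 at 1.23 and the complement receptor VSIG4 at 1.34 on the log2 scale. MARCO passed the brightness filter only through the PGF2alpha arrays, so a difference was built into its selection and enters the count and the median. MRC1 had further probe sets at 2.05 (limma adjusted p = 0.00589) and at 0.47 (limma adjusted p = 0.317), the second with overlapping groups. The summed signal of the 15 markers was 53747 to 87716 after PGF2alpha and 21778 to 36882 after vehicle. Much of that sum was lysozyme, LYZ, which was not called (limma adjusted p = 0.104) and read 24800, 52100 and 28100 on the PGF2alpha arrays, against 21100, 12500 and 19900 on the vehicle arrays. The ranges of the sum did not overlap, and the part of these cells in the differences of CLDN5, DSP, JUP, CAV1, PANX2, PCDH7, PCDH11X or PCDH20 was not tested. The lists were chosen with earlier results of these data known, and their direction is no independent evidence.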

How the data were processed

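The deposited values are linear MAS5 signal intensities per probe set, which the authors made with Microarray Suite 5.0, per the submitters' processing notes. Other deposited per-array scanner files were used only for the hybridisation times, from which the runs were set. Trimmed means (2% left out at each end) were 500.0 on all arrays, so no further scaling was applied. The table held 52865 probe sets. Of these, 158 control and reporter probe sets were left out of the tests, 24969 had 1 symbol, 361 several and 27535 none, and symbols came from an annotation that can be old.

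Signals were tested as log2(signal + 40), 40 being the 25th percentile of all values, with limma 3.58.1 in R 4.3.3 (lmFit, eBayes with trend, two-sided) on all 26942 probe sets at or above the array median on at least 3 arrays, with Benjamini-Hochberg adjustment over all of them. A gene was represented by its brightest tested probe set. The fit was tested on simulated data.

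Members and lists were chosen with earlier results of these data known. Named genes were every called member, 26 members whatever their values, the 5 uncalled members of largest difference, and at most 4 called genes per list by smallest p. No sequence or coordinate was used. The number of arrays limits the precision.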

Additional observations from a re-analysis of the deposited data

How the results depend on the processing

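In 17 alternative fits CLDN3 stayed negative, from -2.98 to -1.97 for its brighter probe set, and CLDN5 stayed positive, from 0.75 to 1.04, and the limma adjusted p passed in 11 and 12 of the 17. With eBayes without a trend the count of called junction probe sets (2) and of called junction genes (2) was 0, with 5 probe sets at an unadjusted p under 0.05, and CLDN3 and CLDN5 had limma adjusted p of 0.0586 and 0.0543. That fit called 669 of all tested probe sets in place of 1353 and 8 of the partner and marker genes in place of 17, and the fit without a brightness filter called 828. The count of junction probe sets was 3 with a pseudocount of 160 and with array weights, where the second CLDN3 probe set passed too. With 1 array left out the counts ran from 0 to 3 junction probe sets, from 0 to 2 junction genes, from 223 to 1903 of all probe sets and from 2 to 27 partner and marker genes. The cause of these shifts was not tested, and the fits with 1 array left out also rested on fewer arrays. Over all named genes, 722 values kept their direction and side of the threshold or moved by less than the replicate spread, 64 lost a call, 3 gained one and 36 moved otherwise, and 0 called values changed sign. DSP kept its call in 15 of 17 fits, JUP in 10, CAV1 in 12, PCDH11X in 12, PANX2 in 9 of 16, and PCDH7 and PCDH20 in 15 of 16. PANX2, PCDH7 and PCDH20 passed the brightness filter through a single group, so their counts of fits are no independent evidence for a difference. CYP17A1 kept its call in 14 of 17 fits and STAR in 6. The alternatives called 2 to 10 macrophage and monocyte markers higher. No paired analysis was possible because the groups share no replicate number. Without detection calls, signals below the array medians could not be set against background.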
